A study of Sparassis latifolia with 15 samples.

Results

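The genes described here are U15 (Gglean010591, annotated as white collar 1 protein) and U11 (Gglean007619, annotated as gluconate transport inducer 1) of the cauliflower mushroom *Sparassis latifolia*. They are 2 of 11118 genes with read counts in both deposited RNA-seq tables and 2 of the 30 genes that the study kept after overlapping its RNA-seq and ATAC-seq comparisons. The study selected those 30 genes on the same libraries, so the direction in which both genes moved against darkness is not independent evidence. Along with the genes go the 3 peaks of open chromatin that the study assigned to them, out of 4187 differential peaks in the deposited lists. All samples were strain SP-C grown in cultivation bags as used in industry. The D group was mycelium kept in darkness for 28 d, the L group was the same kind of mycelium given white LED light for 1 h, and the P group was primordia that formed over the next 2 weeks under 14 h of daily light. The sample labels give day 28, day 30 and day 42 for D, L and P, so that labels and methods differ for the age of L. Each group had 3 RNA-seq libraries (20798190 to 27706995 reads counted in genes per library) and 2 ATAC-seq libraries. P differs from D in age, in tissue and in light, and these cannot be told apart. If the labels hold, L also differs from D in age as well as in light, and these cannot be told apart either. The labelled tissues could not be checked against marker genes, because the sources used here tie gene IDs of SP-C to names only for the study's list and its qRT-PCR reference.

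White collar 1 is best known from *Neurospora crassa*, where it is a blue light receptor and a transcription factor in the same protein. It binds a flavin in its light-sensing domain, pairs with white collar 2 and activates light-responsive genes. In the mushroom *Coprinopsis cinerea*, the homolog of white collar 1 is needed for normal fruiting body development in light. Gluconate transport inducer 1 was named in the fission yeast *Schizosaccharomyces pombe* for a protein that raises gluconate uptake. It belongs to a fungal family of transcriptional regulators that also holds Wor1, the switch between white and opaque cells in *Candida albicans*. What either gene does in *S. latifolia* is not known from these data, and the sequence of neither gene was at hand.

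Reads of U15 were higher in every light-exposed library than in every dark one, and still higher in 2 of the 3 primordia libraries. Levels are given as CPM, which are read counts scaled to the depth of each library after TMM normalization. In D, U15 stood at 127 CPM in replicate 1, 90.6 CPM in replicate 2 and 96.8 CPM in replicate 3, a mean of 104.7 ± 19.2 CPM (SD, n = 3). In L, it stood at 201, 400 and 343 CPM in replicates 1, 2 and 3, a mean of 315 ± 102 CPM (SD, n = 3). In P, it stood at 1064, 231 and 984 CPM in replicates 1, 2 and 3, a mean of 760 ± 460 CPM (SD, n = 3). Primordia replicate 2 thus lay below light replicates 2 and 3 but above all dark libraries, so that L and P overlapped and D overlapped with neither.

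U11 was low in darkness and spanned a wider range than U15 did. In D, its level was 3.54 CPM in replicate 1, 7.65 CPM in replicate 2 and 5.81 CPM in replicate 3, a mean of 5.67 ± 2.06 CPM (SD, n = 3). These levels rest on 72, 207 and 141 reads, and the 95% Poisson intervals of the lowest (2.77 to 4.46 CPM) and the highest (6.64 to 8.77 CPM) do not meet, so the spread in D is more than counting error. In L, the level was 44.9, 99.3 and 62.2 CPM in replicates 1, 2 and 3, a mean of 68.8 ± 27.8 CPM (SD, n = 3). In P, it was 205, 320 and 87.3 CPM in replicates 1, 2 and 3, a mean of 204 ± 116 CPM (SD, n = 3). Every L and every P library was above every D library, and primordia replicate 3 lay below light replicate 2. The counts come from bulk samples, in which a larger share of expressing cells and more RNA per cell cannot be told apart. No source used here says whether strand was used in counting, and reads of an overlapping or antisense gene cannot be separated from these counts.

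**Figure D1:**
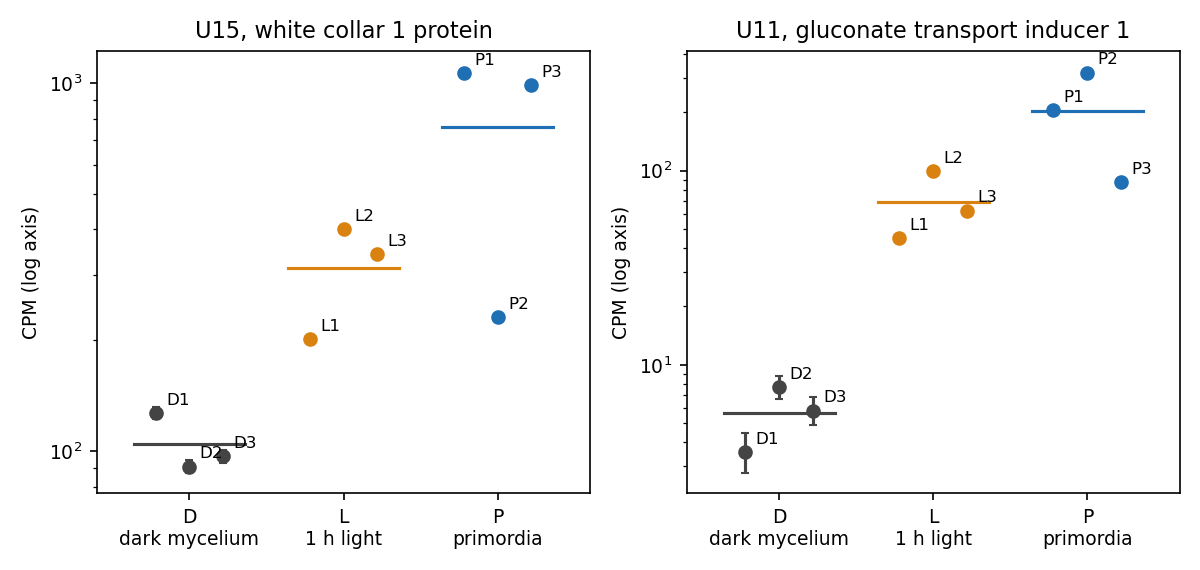
CPM on a log axis for U15 (left) and U11 (right) in each of 9 RNA-seq libraries of D, L and P, with group means as horizontal lines and 95% Poisson intervals of the counts as bars (labels D1 to P3 are libraries). Dark libraries lie below all others for both genes, and primordia replicate 2 is the lowest P library for U15 (231 CPM) and the highest for U11 (320 CPM).

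Mycelium given 1 h of light was compared with dark mycelium in L vs. D. U15 was 3.01-fold higher in L (95% interval 1.86 to 4.87) and U11 was 12.1-fold higher (6.15 to 23.9). The log2 fold changes were 1.59 (SE 0.29) and 3.60 (SE 0.41). Neither gene passed edgeR's quasi-likelihood test with Benjamini-Hochberg adjustment over 10627 genes, with an adjusted p of 0.162 for U15 and 0.0895 for U11. Calls needed an adjusted p no higher than 0.05 together with a fold change over 1.2. By that rule edgeR called 0 of all genes higher (0%) and 0 lower, although 683 genes were higher and 597 lower at an unadjusted p under 0.05. DESeq2 called both genes higher (adjusted p = 0.000161 and 5.6e-15), beside 1.78% of all genes called higher and 206 called lower. Both genes were higher in every L library than in every D library, as were 9.58% of all genes tested. Of the 10627 genes, 117 had a larger log2 fold change than U15 and 11 a larger one than U11. Without light replicate 1, the library in which both genes were lowest within L, edgeR called U11 (adjusted p = 0.0306) but not U15 (adjusted p = 0.0592). With any other library left out, edgeR called neither, and its adjusted p reached 0.378 for U11 and 0.536 for U15.

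Primordia were compared with dark mycelium in P vs. D. Both genes rose. U15 was 7.28-fold higher in P (95% interval 2.86 to 18.5), which is 2.86 on the log2 scale with an SE of 0.58, and edgeR gave an adjusted p of 0.0433. U11 was 36.5-fold higher (14.3 to 93.5), which is 5.19 on the log2 scale with an SE of 0.58, and edgeR gave an adjusted p of 0.0079. DESeq2 also called both, with adjusted p values of 7.4e-06 and 7.3e-20. Among all 10606 genes tested, edgeR called 1.33% higher and DESeq2 called 4.67% higher, and 13.1% were higher in every P library than in every D library. A larger log2 fold change was found in 94 genes for U15 and in 22 genes for U11. The call of U15 ended when any of dark replicates 1, 2 and 3 or primordia replicates 1 and 3 was left out, with edgeR's adjusted p between 0.0772 and 0.183. Without primordia replicate 2, U15 was called with a log2 fold change of 3.29 (adjusted p = 0.0046 from edgeR). The call of U11 held whichever of the 6 libraries was missing, with edgeR's adjusted p between 0.0043 and 0.0423. L vs. D and P vs. D share the 3 dark libraries, so their values are given side by side and are not independent of each other. On the log2 scale, the change in L was 55.5% of the change in P for U15 and 69.3% for U11.

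**Figure D2:**
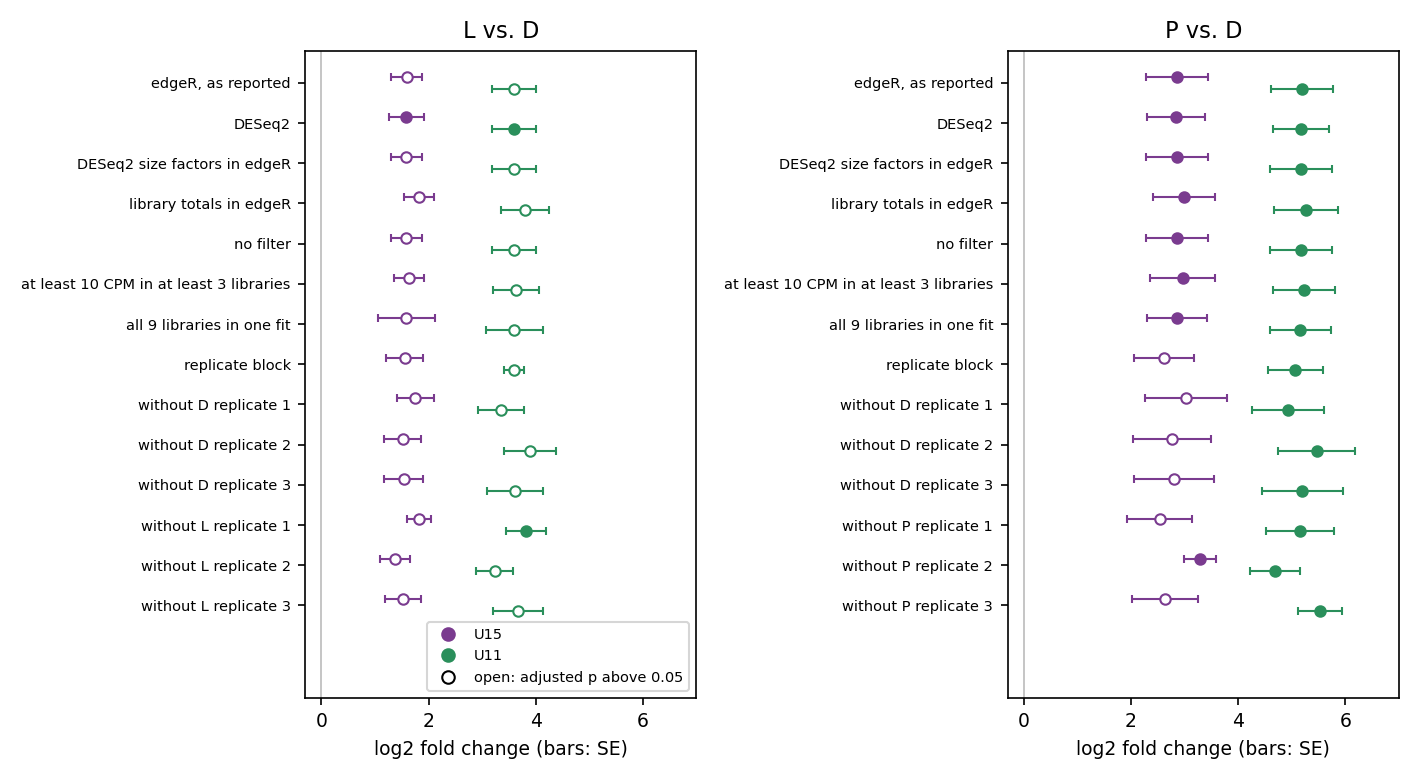
log2 fold changes of U15 and U11 with SE bars in L vs. D (left) and P vs. D (right), for the reported fit and for each alternative with a test across all genes, in which filled points have an adjusted p of at most 0.05. All points lie above 0, U11 is filled throughout P vs. D, and U15 in P vs. D is open with the replicate block and when any library other than primordia replicate 2 is left out.

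Primordia were also set against light-exposed mycelium, in a fit of all 9 libraries. U15 was 2.42-fold higher in P than in L (95% interval 1.07 to 5.46) and U11 was 2.96-fold higher (1.38 to 6.37). With adjusted p values of 0.437 and 0.319 from edgeR, neither difference passed. DESeq2 called neither (adjusted p = 0.206 and 0.0634). For both genes L and P overlapped, whereas 6.75% of the 10701 genes tested were higher in every P than in every L library. The labels do not say that equal replicate numbers mark shared material. Set against the L library of the same number, U11 was higher in P in 3 of 3 pairs, as were 17.3% of all genes. U15 was higher in 2 of 3 pairs, being lower in primordia replicate 2 than in light replicate 2. Of all genes, 0.0187% were called higher by edgeR and 1.43% by DESeq2. With the replicate number as a block over all 9 libraries, D included, edgeR called 1 gene in place of 4 in both directions together. The adjusted p from edgeR was then 0.632 for U15 and 0.353 for U11. Without primordia replicate 2, the difference grew to 1.70 on the log2 scale for U15 (adjusted p = 0.0658 from edgeR) and shrank to 1.09 for U11 (adjusted p = 0.232 from edgeR).

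The genes kept the same order of libraries within L but not within D or P. Relative to the mean of D, light replicate 1 was 1.92-fold for U15 and 7.92-fold for U11, light replicate 2 was 3.82-fold and 17.5-fold, and light replicate 3 was 3.27-fold and 10.98-fold. Within L, both genes therefore had the same order of libraries, with replicate 1 lowest and replicate 2 highest. Primordia replicate 1 was 10.2-fold for U15 and 36.2-fold for U11, replicate 2 was 2.21-fold and 56.4-fold, and replicate 3 was 9.40-fold and 15.4-fold. Within P, the library with the most U11 was the one with the least U15. Primordia replicate 1 was above replicate 3 for both genes. Within D the order was reversed, since replicate 1 had the most U15 and the least U11, and replicate 2 the least U15 and the most U11.

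**Figure D3:**
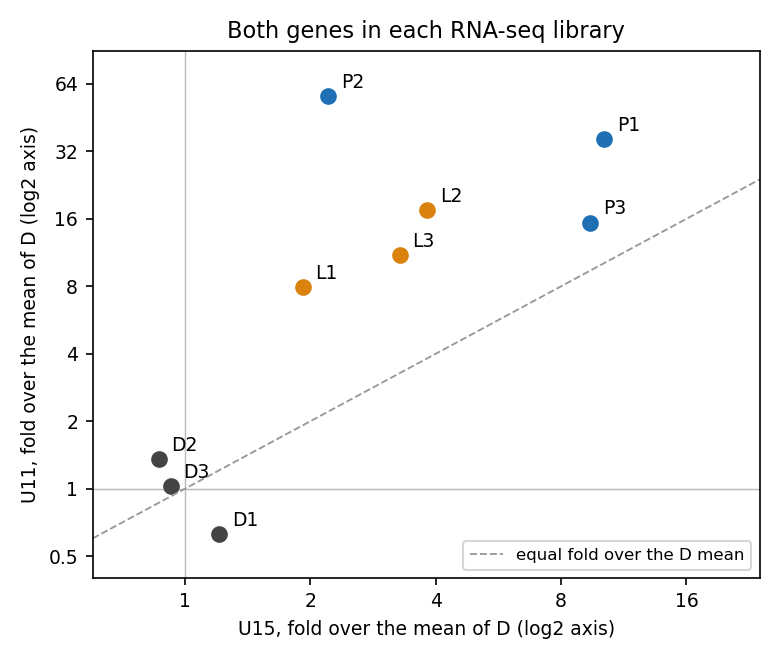
Fold over the mean of the D libraries for U15 (x axis) and U11 (y axis), both on log2 axes, 1 point per RNA-seq library (labels D1 to P3 are libraries). The 6 L and P libraries lie above the dashed line of equal fold, as do dark replicates 2 and 3. Primordia replicate 2 stands apart at 2.21-fold for U15 and 56.4-fold for U11.

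The ratio of U11 reads to U15 reads within a library needs no scaling by depth. Its level depends on the unknown lengths of the genes, but its change between groups does not. On the log2 scale (0.5 added to each count), the ratio was -5.15, -3.56 and -4.05 in dark replicates 1, 2 and 3, and -2.16, -2.01 and -2.46 in light replicates 1, 2 and 3. It was -2.37, 0.47 and -3.50 in primordia replicates 1, 2 and 3. Every L and P library was above every D library, so that reads of U11 were up by a larger factor than reads of U15. For primordia replicate 3 (-3.50) against dark replicate 2 (-3.56) this held only narrowly. That gap is within the counting error of the 207 U11 reads in dark replicate 2. The mean ratio was 2.04 higher in L than in D and 2.46 higher in P than in D, each with p = 0.1 in a two-sided exact permutation test over 3 against 3 libraries, the smallest p this design allows (0.15 after Benjamini-Hochberg adjustment over 3 comparisons). P and L differed by 0.41 (exact permutation p = 0.9), with an SD of 2.04 in P and 0.23 in L. Without primordia replicate 2, the difference of P from D was 1.32 and that of P from L turned to -0.72.

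Primordia replicate 2 also lay furthest out on the main axis of spread within groups. A principal component of the deviations from the group means, over 7917 genes with at least 10 CPM on average, held 55.4% of the variance within groups. Scores were 50.1 in primordia replicate 2, -12.9 and -37.2 in primordia replicates 1 and 3, and 38.4 in light replicate 2, the highest of L. U11 was highest in the libraries with the highest score in P and in L, but in D it was highest in replicate 2, which had the lowest score (-16.0), and not in replicate 3, which had the highest (19.8). Replicate 2 was the lowest P library for 44.1% and the highest for 37.5% of all genes, and among the study's 17 genes coded U it was the lowest for 9 and the highest for 7. By the study's own read summary, primordia replicate 2 had the lowest mapped rate of all RNA-seq libraries. Light replicate 2 had the lowest mapped rate of L. What part this axis or the mapped rate has in the levels of U15 and U11 was not tested. In P, the coefficient of variation was 60.5% for U15 and 57.0% for U11, against a median of 31.1% over all genes. In D, that of U15 was 18.4%, near the median of 18.8%, and that of U11 was 36.3%.

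Genes with the most similar pattern differed between U15 and U11. Similarity was measured as Pearson's r of log2(CPM + 1) over the 9 libraries, which share the 3 groups, and is given as a description. Genes named by it were picked on all these libraries, so a shared place of primordia replicate 2 follows in part from the choice. The correlation between U15 and U11 themselves was 0.76, and U11 ranked at place 359 among 7916 genes by likeness to U15. The gene most like U15 was Gglean001045 (r = 0.98), which ranged from 13.3 to 14.2 CPM in D and stood at 29.6, 18.2 and 27.6 CPM in primordia replicates 1, 2 and 3. Among the study's other genes with at least 10 CPM on average, U12 (Gglean008695) was the nearest to U15 (r = 0.92). Its annotation is a RING finger protein with a LON peptidase N-terminal domain. U12 stood at 2684, 109 and 907 CPM in primordia replicates 1, 2 and 3, so that it also was lowest in replicate 2. U16 (Gglean010678, cysteine proteinase 1) came next (r = 0.91). The gene most like U11 was Gglean006766 (r = 0.99), although it moved little, from 56.5 to 57.6 CPM in D to 68.6 to 71.8 CPM in P. Among the study's genes, U5 (Gglean002890), a hypothetical protein, was the nearest to U11 (r = 0.97). It stood at 169, 427 and 122 CPM in primordia replicates 1, 2 and 3, highest in replicate 2 as U11 was. U13 (Gglean008796), another hypothetical protein, followed (r = 0.93). The files pair no description with Gglean001045 or Gglean006766.

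No other gene of a light-sensing or gluconate pathway could be named in these tables, so the only list at hand for comparison was the study's own. Of its other 15 genes coded U, edgeR called 0 in L vs. D and 9 higher in P vs. D (10 and 11 with DESeq2). For L vs. D, the share of all genes called higher was 0% by edgeR and 1.78% by DESeq2. For P vs. D, that share was 1.33% by edgeR and 4.67% by DESeq2. On the log2 scale, the 15 had a median change of 3.01 in the first comparison and 4.24 in the second, against medians of 0.02 and 0.07 over all genes tested. By log2 fold change, U11 was at place 5 of 17 in L vs. D and at place 4 in P vs. D when all genes coded U were ranked, and U15 was at places 12 and 13. The study chose this list on the same libraries.

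The deposited lists hold gained peaks of open chromatin at both genes in L vs. D. ATAC-seq marks accessible DNA by the sites where a transposase inserts adapters. Each deposited peak comes with a score in a unit that the sources used here do not give, and no values per library are listed, so none of the peaks could be tested over samples. By the study's own summary, a dark library had the fewest ATAC-seq reads and peaks, and the P libraries had the lowest mapped rates. What part this has in the gained and lost peaks was not tested. For U15, the study annotated a gained peak of 1284 bp in the promoter, on contig 63 of the SP-C genome from 62652 to 63935, and a gained peak of 203 bp in an exon, from 61022 to 61224. The promoter peak had the fifth highest score of the 234 gained peaks in L vs. D and was wider than 94.9% of them. The exon peak, with a score rank of 168, was among the lower ones. Their centres lie 2170.5 bp apart, with the exon at the lower coordinate. For U11, the study annotated a gained intergenic peak of 2270 bp on contig 39 from 409999 to 412268, with a score rank of 18 and wider than 97.9% of the gained peaks.

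Each of these 3 regions also overlapped a gained peak of P vs. D. Among all 234 gained peaks of L vs. D, 32.9% overlapped a gained peak of P vs. D. The study kept a gene coded U only where it was linked to a gained peak in both comparisons. That rule favours such overlaps without requiring the same region, so they are a description and not a finding. At the U15 promoter, the peak of P vs. D spanned 3394 bp, from 62819 to 66212. It covered 87.0% of the peak of L vs. D and ran 2277 bp beyond it, on the side away from the exon peak. At the exon of U15, a peak of 207 bp from 60915 to 61121 overlapped the peak of L vs. D by 100 bp. At U11, a peak of 3401 bp from 409835 to 413235 held the whole peak of L vs. D and extended it by 164 bp and 967 bp at its ends. Of the 3, only the U11 peak passed a reciprocal overlap of 50%, as did 16.7% of all gained peaks of L vs. D. Both comparisons share the dark libraries.

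Within 100 kb of the centre of the peak with the highest score that the study assigned to each gene, L vs. D held gained peaks only, 5 around U15 and 4 around U11, with 0 lost around either. The peaks through which the genes were selected, 2 at U15 and 1 at U11, are among these, so the counts are a description only. Over the whole lists, 46.2% of the differential peaks of L vs. D and 48.0% of those of P vs. D were gained. Around U15, all 5 reached into the 10 kb to either side of the centre of the promoter peak, and 4 of them were 341 bp or narrower. Around U11, the gained peak with the highest score of the list of L vs. D, 6369 bp wide on contig 39 from 377187 to 383555, lay 30.8 kb from the gene's own peak. In P vs. D, 6 peaks were gained and 1 was lost around U15. The gained peak with the highest score among them was 2582 bp wide, from 85538 to 88119, at 23.5 kb from the promoter peak of L vs. D and with no counterpart in L vs. D. In P vs. D, 5 peaks were gained and 6 were lost around U11. A lost peak from 373891 to 374171 lay inside a peak that was gained in L vs. D, from 373641 to 374463, and both had the same score. It was the only overlap between the 234 gained peaks of L vs. D and the 1912 lost peaks of P vs. D. For this reason no size of change was taken from the score. The window of U15 reached the start of contig 63 after 63.3 kb, and no differential peak lay beyond 460693 on contig 39, so that the window of U15 is cut short on 1 side and that of U11 may be. Peaks in these windows were not assigned to U15 or U11 unless the study did so.

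**Figure D4:**
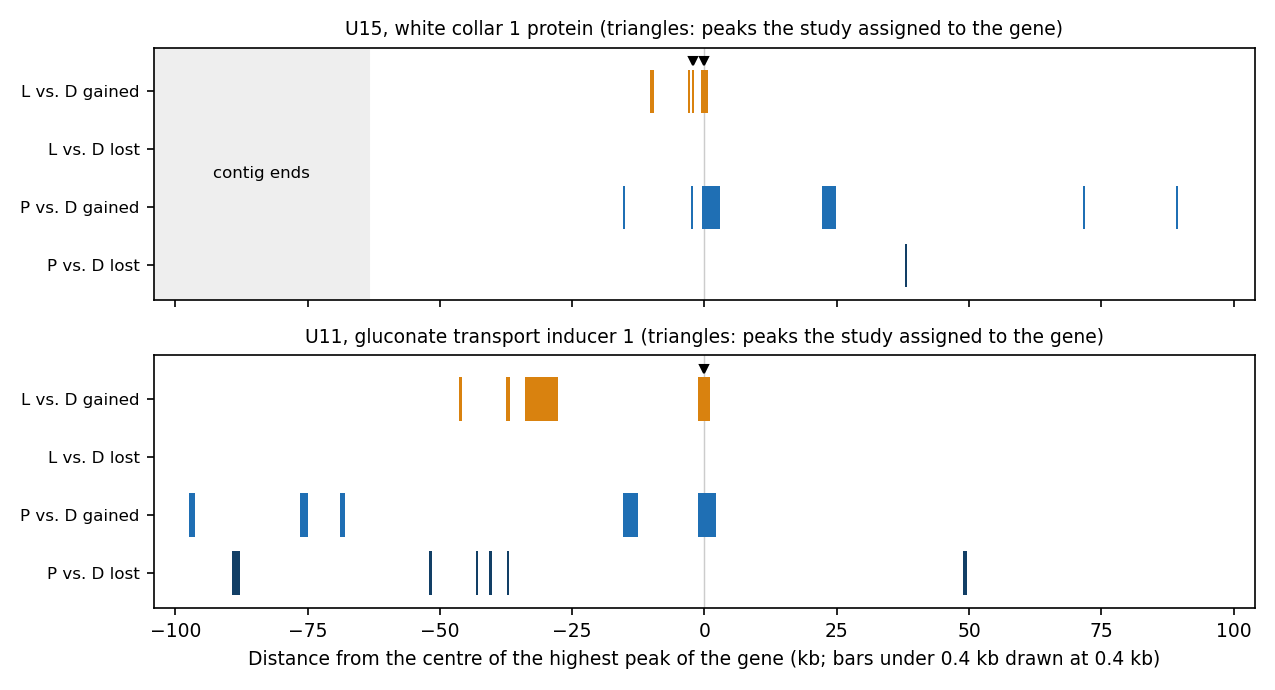
Differential ATAC-seq peaks around U15 (top) and U11 (bottom) by distance in kb from the centre of the highest peak of each gene, with gained and lost peaks of L vs. D and P vs. D in separate rows, and triangles at the 3 peaks the study assigned to the genes. Rows of lost peaks in L vs. D are empty, and the regions at distance 0 were gained in both comparisons. Around U11, 6 peaks were lost and 5 gained in P vs. D.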

How the data were processed

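RNA-seq (3 libraries per group) and ATAC-seq (2 per group) of D, L and P were analysed. The authors used cutadapt for trimming, STAR for alignment to the genome of SP-C and HTSeq 0.6.1 for counting per gene, and these deposited raw counts were the only values taken from the expression tables. The tables also hold the authors' normalized values, fold changes and p-values, which were not used. ATAC-seq reads were mapped with BWA 0.7.10, and peaks were called by the authors with MACS2 2.1.1, with a consensus map per group from its merged samples. Neither a shift for the transposase nor duplicate removal is mentioned in the methods. The authors set an initial threshold on fold change and p for peaks, and mention no adjustment of that p. The deposited peak lists give each differential peak a score of unstated unit. Replicates are called biological, with nothing said of separate bags, so p-values measure the spread between these libraries.

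Genes were filtered with filterByExpr, scaled by TMM and tested with edgeR 4.0.16 (quasi-likelihood, R 4.3.3), with Benjamini-Hochberg adjustment over all genes. L vs. D and P vs. D were fitted on their own 6 libraries, and P vs. L on all 9. SE and intervals were derived from the F statistic and add no evidence to the p-value. Poisson intervals and all counting intervals cover counting error only. DESeq2 1.42.0, other scalings and filters, left-out libraries, a replicate block, other windows and overlaps were alternatives. CPM were computed from the fit of 9 libraries. No 2 replicates of a group agreed within sampling noise. Same-numbered libraries of L and P were set side by side. Their deviations from the group means correlated by 0.16, 0.55 and 0.40 for numbers 1, 2 and 3. Light replicate 1 correlated more with primordia replicate 3, and D shared no such pattern. The labels tie numbers to no shared bag or day, so no pairing was established. Counts of pairs and fits with the replicate block are therefore descriptions only. Named genes are the members, GAPDH, the gene nearest to each member by Pearson's r and the 2 nearest in the study's list, and of the 2 nearest IDs planned per member only the first is named, since the files describe neither. Peaks were those assigned by the study and all within 100 kb. The members and lists were chosen with earlier results of these data known. Figures were drawn with matplotlib 3.10.9. The reference table at hand belongs to another strain and was not used.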

Additional observations from a re-analysis of the deposited data

How the results depend on the processing

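All log2 fold changes of U15 and U11 stayed positive under each of 14 alternatives. In L vs. D, DESeq2 called U15 (1.58) and U11 (3.60), and with 1 library left out U11 ran from 3.23 to 3.89 and was called without light replicate 1. In P vs. D, U15 ran from 2.54 to 3.29 with 1 library left out. Replicate numbers did not pair D with L or P, since same-numbered libraries correlated between -0.40 and 0.44, and not every library correlated best with its own number. Between L and P, light replicate 1 also correlated best with another number, so no pairing was established there either. With the replicate block, the value of U15 in P vs. D was 2.62 (adjusted p = 0.130 from edgeR), and the block changed no other call of either gene. Genes called in P vs. D numbered 350, against 1158 by DESeq2, 89 with the replicate block and 73 to 727 with 1 library left out. In L vs. D, 0 genes became 404 by DESeq2, 3 with library totals, 2 with no filter, 3 with at least 10 CPM in at least 3 libraries, 2 with all 9 libraries and 0 to 15 with 1 library left out. In P vs. L, 4 genes became 321 by DESeq2, 8 with library totals, 2 with at least 10 CPM, 0 with the L and P libraries only, 1 with the replicate block and 0 to 52 with 1 library left out. Library totals moved the median log2 fold change of all genes to 0.23 (L vs. D) and 0.17 (P vs. D), and relative to it U15 stood at 1.59 and 2.82 and U11 at 3.57 and 5.09. The log2 ratio of U11 to U15 in P vs. L ran from -0.72 to 1.26 with 1 library left out. At a score of at least 5, gained peaks near U15 in L vs. D fell from 5 to 1, lost peaks near U15 in P vs. D from 1 to 0 and lost peaks near U11 from 6 to 3. Within 50 kb, 2 gained peaks of P vs. D lay near U11. Within 10 kb, L vs. D held 1 gained peak near U11, and P vs. D held 2 gained near U15, 1 gained near U11 and 0 lost near either. A reciprocal overlap of 50% left 1 of 3 shared gained regions. The cause of these differences was not tested.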

Other observations

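GAPDH (Gglean007906), the enzyme of glycolysis that the study used as its reference in qRT-PCR, was not level across these libraries. It stood at 3361, 2506 and 2069 CPM in dark replicates 1, 2 and 3, at 2864, 821 and 1819 CPM in light replicates 1, 2 and 3, and at 4374, 647 and 2250 CPM in primordia replicates 1, 2 and 3. The spread within P was thus 6.76-fold between the highest and the lowest library, and primordia replicate 2 was the lowest of all 9. The groups overlapped, and edgeR did not call GAPDH in L vs. D (adjusted p = 0.711) or in P vs. D (adjusted p = 0.950). As an alternative chosen after seeing the data, counts of U15 and U11 were divided by those of GAPDH in the same library. The log2 difference from D was then 2.22 in L and 3.07 in P for U15, and 4.27 and 5.53 for U11, each with p = 0.1 in a two-sided exact permutation test over 3 against 3 libraries, the smallest p this design allows. On this scale U15 in primordia replicate 2 was no longer the lowest of P, at -1.49 beside -2.04 and -1.19 in replicates 1 and 3. The low GAPDH of that library raises both genes there on this scale. U11 in primordia replicate 2 stood at -1.02, still above the -4.41 and -4.69 of replicates 1 and 3. For its list the study reported qRT-PCR patterns similar to those of sequencing, with exceptions that include neither U15 nor U11. The paper also cites earlier work in which white collar 1 of *S. latifolia* rose with light and during development.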
